A study of Mus musculus with 6 samples.

Results

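The 4 Hox gene clusters of the mouse, HoxA on chromosome 6, HoxB on chromosome 11, HoxC on chromosome 15 and HoxD on chromosome 2, were followed through 6 libraries of CpG methylation from embryonic stem cells. Their members were the cytosines listed inside 4 windows of the mouse build mm9: chr6:52095000-52225000 (HoxA), chr11:96045000-96240000 (HoxB), chr15:102740000-102880000 (HoxC) and chr2:74495000-74612000 (HoxD). In these windows 2084 cytosines were listed in at least 1 library, of 750119 in the whole series, and 1181 were listed in all 6, of 369208 such cytosines on the 19 autosomes. The 1181 shared cytosines comprised 318 in HoxA, 244 in HoxB, 209 in HoxC and 410 in HoxD, and all levels below are over shared cytosines unless another set is named.

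The cells were the mouse embryonic stem cell line E14, profiled by reduced representation bisulfite sequencing (RRBS), which cuts DNA with MspI at CCGG and so samples mainly CpG-rich sequence. Each of the 6 groups was 1 library from cells carrying short hairpin RNAs (shRNAs): a control shRNA, shRNAs against Tet1 and Tet2 together, against Dnmt1, against Dnmt3a, against Dnmt3b, or against Dnmt3a and Dnmt3b together, called the double knockdown below. All 6 libraries were of the same cell line, and how much each shRNA lowered its target was not measured in the data used here. DNMT1 copies methylation onto newly replicated DNA, DNMT3A and DNMT3B add methylation to unmethylated CpGs, and TET1 and TET2 oxidise 5-methylcytosine, while bisulfite reads 5-methylcytosine and 5-hydroxymethylcytosine alike. Because no group had a second library, conditions could not be tested against each other, and a difference between 2 libraries carries no replicate error. All comparisons with control share that 1 control library. The SD beside a Hox mean is over the 4 clusters and the SD beside an autosomal mean is over the 19 autosomes, and both describe spread along the genome only.

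Hox genes encode homeodomain transcription factors that give cells their position along the body axis, and their order on the chromosome follows the order in which they are switched on in time and along the axis. In embryonic stem cells the clusters are known as textbook targets of Polycomb repressive complexes: the genes are silent, and their dense CpG islands are largely free of DNA methylation. DNA methylation inside the clusters is known mainly from sequence between the islands.

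The promoters that could be tied to listed cytosines show the range of the data. Of 38 Hox genes looked up, 22 matched an entry in the RefSeq promoter table (GRCm38.p6), and 8 could be placed on the mm9 positions by the contexts and spacings of their CpGs. For 4 of them the 250 bases before the start site are printed here because Hoxd12 and Hoxa5 had the highest levels and Hoxd11 and Hoxd1 the most listed CpGs. Capitals mark every CG for which at least 1 library listed a level, and all other bases are in lower case. Hoxd12 and Hoxd11 act in the distal limb and, for Hoxd11, the kidney. Hoxa5 patterns the cervicothoracic skeleton and the lung, and Hoxd1 is the most 3′ gene of HoxD.
Hoxd12 (mm9 chr2:74512820-74513069, plus strand): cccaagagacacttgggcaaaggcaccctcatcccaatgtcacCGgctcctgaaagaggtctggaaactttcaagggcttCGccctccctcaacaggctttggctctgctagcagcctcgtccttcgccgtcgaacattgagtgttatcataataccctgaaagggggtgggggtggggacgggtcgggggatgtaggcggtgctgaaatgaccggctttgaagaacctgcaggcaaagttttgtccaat
Hoxd11 (mm9 chr2:74520130-74520379, plus strand): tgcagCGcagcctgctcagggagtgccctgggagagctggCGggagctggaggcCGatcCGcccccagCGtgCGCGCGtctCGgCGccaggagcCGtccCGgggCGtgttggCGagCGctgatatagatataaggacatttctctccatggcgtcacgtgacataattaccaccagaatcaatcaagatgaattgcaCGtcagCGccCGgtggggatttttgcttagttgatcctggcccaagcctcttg
Hoxd1 (mm9 chr2:74600787-74601036, plus strand): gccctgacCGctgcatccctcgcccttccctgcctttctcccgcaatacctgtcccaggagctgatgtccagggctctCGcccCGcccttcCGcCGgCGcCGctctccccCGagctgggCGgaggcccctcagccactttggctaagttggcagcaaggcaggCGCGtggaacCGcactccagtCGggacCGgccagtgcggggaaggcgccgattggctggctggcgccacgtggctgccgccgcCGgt
Hoxa5 (mm9 chr6:52154587-52154836, minus strand): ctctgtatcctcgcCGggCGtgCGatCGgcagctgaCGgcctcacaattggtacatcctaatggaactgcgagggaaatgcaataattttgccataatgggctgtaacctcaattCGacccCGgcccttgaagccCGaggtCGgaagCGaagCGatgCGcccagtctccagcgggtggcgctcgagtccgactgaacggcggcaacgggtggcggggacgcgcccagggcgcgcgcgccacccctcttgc
The Hoxd12 sequence holds 10 CG, the Hoxd11 sequence 20, the Hoxd1 sequence 24 and the Hoxa5 sequence 28. The CCGG cut by MspI occurs 2 times in each of the Hoxd12, Hoxd11 and Hoxa5 sequences and 3 times in that of Hoxd1. In the 250 bases before the start, the 24 promoter entries of Hox genes held a median of 12.5 CG, against 6 over all 32851 entries of the table. CCGG, which reads the same on both strands, was found in 75% of the Hox entries and in 47.1% of all entries.

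Levels across the clusters were low in every library. In control the mean level of the 1181 Hox cytosines was 8.54% ± 1.34 (SD over 4 clusters), with 9.78% ± 1.53 in the Tet1 and Tet2 library, 1.60% ± 0.28 in the Dnmt1 library, 4.38% ± 0.98 in the Dnmt3a library, 9.12% ± 1.38 in the Dnmt3b library and 4.33% ± 1.07 in the double knockdown. The Tet1 and Tet2, Dnmt3b and control libraries were high, the Dnmt3a and double knockdown libraries lay near each other, and the Dnmt1 library was lowest, in that order in all 4 clusters apart from exchanges between neighbours. By cluster, control had 6.95% in HoxA, 10.03% in HoxB, 9.39% in HoxC and 8.45% in HoxD. The Dnmt1 library had 1.24% in HoxA, 1.89% in HoxB, 1.54% in HoxC and 1.73% in HoxD, and its 4 values lay below every value of the other libraries. The Dnmt3a library had 3.42% in HoxA, 5.52% in HoxB, 5.18% in HoxC and 4.03% in HoxD, and the double knockdown 3.21%, 5.70%, 4.90% and 4.08% in the same order. Neither of these ranges overlapped that of control, while the Dnmt3b library (7.18%, 10.2%, 9.997% and 9.56%) and the Tet1 and Tet2 library (8.27%, 11.4%, 11.2% and 9.25%) overlapped it.

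Classes were set on each cytosine's median over the 6 libraries, so that no class rested on control alone. By this measure 1072 Hox cytosines, or 90.8%, were low (below 20%), 106 were intermediate (20% to 80%) and 3 were high (above 80%). On the autosomes 68.4% of cytosines were low, 15.6% intermediate and 16.1% high, against 0.254% high in the Hox clusters. The median takes in the Dnmt1, Dnmt3a and double knockdown libraries, so cytosines above 20% in control could be classed low. In control itself 86.5% of Hox and 67.0% of autosomal cytosines were below 20%. Of the low Hox cytosines 4.76% were at 20% or more in control. The split depends on the set: over the 1432 Hox cytosines listed in the 5 libraries other than Dnmt1, 1217 were low (85.0%) and 215 had a median of at least 20% (15.01%), 17 of them above 80%, and on the autosomes 61.7% were then low. The low share of the Hox clusters was above that of the autosomes in both sets. HoxA was 93.7% low, HoxB 89.3%, HoxC 88.5% and HoxD 90.5%, so the 4 clusters lay within a few points of each other. HoxC and HoxD held no high cytosine, HoxB held 2 and HoxA 1. The first high cytosine, in HoxB at position 96092636, had 92.9% in control, 90.6% in the Tet1 and Tet2 library, 21.2% in the Dnmt1 library, 75% in the Dnmt3a library, 83.3% in the Dnmt3b library and 95.7% in the double knockdown. The other in HoxB, at position 96229459 near the end of the window, had 85.7%, 92.6%, 25.8%, 70.6%, 91.5% and 87.1% in the same order. That in HoxA, at position 52159633, had 84.6%, 87.0%, 34.5%, 68.8%, 84.0% and 76.7%. At all 3 the Dnmt1 library was by far the lowest and the Dnmt3a library the next lowest.

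**Figure D1:**
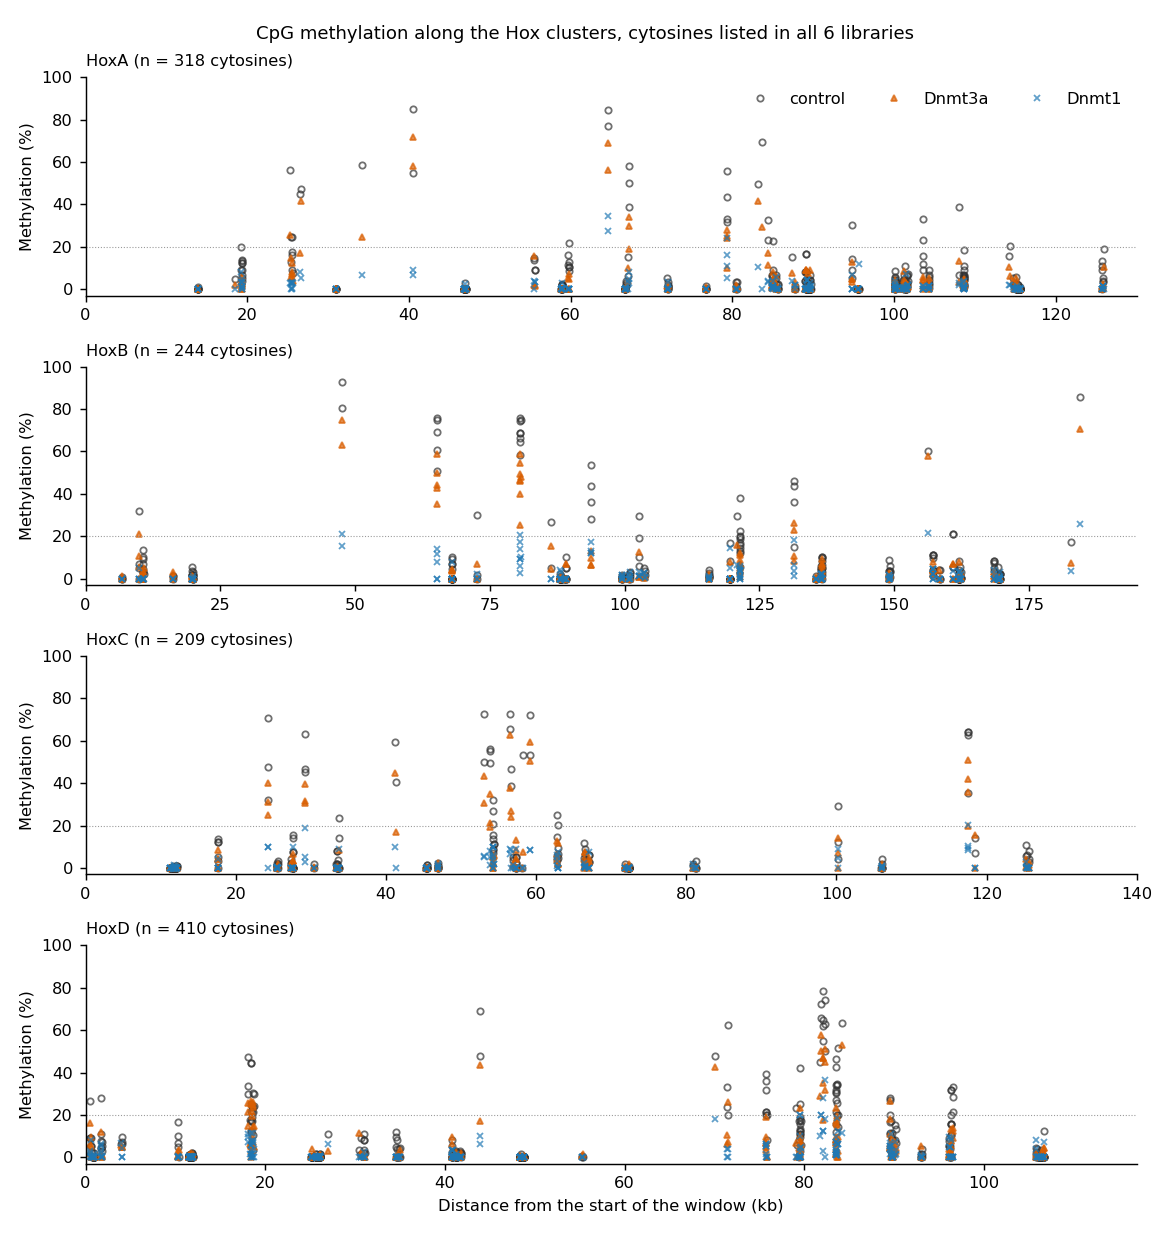
Methylation level in percent (vertical axis) of each shared cytosine against its distance in kb from the start of the window (horizontal axis), for the control, Dnmt3a and Dnmt1 libraries in the 4 clusters (HoxA 318, HoxB 244, HoxC 209 and HoxD 410 cytosines). Most points sit below the dotted line at 20%, and the higher control values stand at separate places along each cluster with the Dnmt1 values far below them.

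The low cytosines stood in long runs without a methylated shared cytosine between them, shown in the plot of levels along the clusters. The longest run of consecutive low cytosines in HoxD reached from 74513710 to 74536752, 23.0 kb with 129 cytosines, and it contains the placed start sites of Hoxd11, Hoxd10 and Hoxd9. Its mean was 1.51% in control, 1.68% in the Tet1 and Tet2 library, 0.234% in the Dnmt1 library, 0.536% in the Dnmt3a library, 1.48% in the Dnmt3b library and 0.442% in the double knockdown. In HoxA the longest run, from 52203032 to 52220901, was 17.9 kb with 65 cytosines at 3.52% in control, and it contains the placed start of Hoxa13, a gene of the digits and the distal genital tract. In HoxB a run from 96202234 to 96227818 spanned 25.6 kb with 66 cytosines at 3.37% in control. The longest of all, in HoxC from 102802798 to 102846100, spanned 43.3 kb but held only 51 shared cytosines, at 4.16% in control. No cytosine was shared between 52210589 and 52220640 in HoxA or between 96214568 and 96227818 in HoxB. The same held between 102821273 and 102840150 in HoxC and between 74513710 and 74520125 in HoxD. The lengths thus include sequence not read in all libraries. In each of the 4 runs the Dnmt1, Dnmt3a and double knockdown means lay below the other 3: the Dnmt3a mean was 1.48% in HoxA, 1.29% in HoxB and 2.15% in HoxC, and the double knockdown mean 1.04%, 1.14% and 1.37%. Single control levels inside these runs reached 20.2% in HoxA, 21.1% in HoxB, 29.2% in HoxC and 24.3% in HoxD.

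Low cytosines still carried traces of methylation. Over the 1072 low Hox cytosines the mean was 4.15% ± 0.44 in control, 5.06% ± 0.28 in the Tet1 and Tet2 library, 0.845% ± 0.170 in the Dnmt1 library, 1.60% ± 0.15 in the Dnmt3a library, 4.44% ± 0.80 in the Dnmt3b library and 1.33% ± 0.33 in the double knockdown. Low autosomal cytosines had a control mean of 1.76% ± 0.20. In control 27.1% of the low Hox cytosines had a level of at least 5%, against 10.7% of the low autosomal ones, and 42.2% were listed at exactly 0, against 70.3%. The share at or above 5% was 28.2% in HoxA, 27.1% in HoxB, 23.8% in HoxC and 28.0% in HoxD, while the 19 autosomes ran from 8.22% to 13.5%, so that each cluster lay above every autosome. A cluster holds far fewer low cytosines than an autosome, so its share scatters more. No test of this difference was made, since cytosines are not replicates. The number of listed neighbours and the distance to methylated sequence differed between the sets, so the share was also read within strata. Among low cytosines with up to 5 listed neighbours within 250 bp it was 38.9% over 193 Hox cytosines and 32.3% on the autosomes, and with 6 to 10 neighbours 37.1% over 299 and 15.9%. With 11 to 20 neighbours it was 23.2% over 423 Hox cytosines and 6.73% on the autosomes, and with 21 or more 4.46% over 157 and 2.41%. Among those more than 2000 bp from the nearest methylated cytosine it was 17.2% over 802 Hox cytosines and 6.09% on the autosomes, between 500 and 2000 bp it was 32.5% over 123 and 13.5%, and within 500 bp it was 76.9% over 147 and 68.1%. The Hox share was the larger in each of these 7 strata.

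These traces were lower in the same libraries as the methylated sites. The share of low Hox cytosines at or above 5% was 5.13% in the Dnmt1 library, 11.4% in the Dnmt3a library and 9.33% in the double knockdown, against 27.1% in the Dnmt3b library and 31.4% in the Tet1 and Tet2 library. The mean difference from control was -3.31 ± 0.31 points in the Dnmt1 library, -2.55 ± 0.30 in the Dnmt3a library and -2.82 ± 0.11 in the double knockdown, with the same sign in all 4 clusters. Relative to control these were -79.7%, -61.4% and -67.9%, where the low autosomal cytosines had -77.4%, -59.5% and -54.0%. The median that set the low class includes these libraries. With classes set on the Tet1 and Tet2 library and the Dnmt3b library, the differences in points were smaller, as given in the last section. In the Tet1 and Tet2 library the low Hox cytosines were higher by 0.908 ± 0.267 points, again in all 4 clusters. In the Dnmt3b library the difference of 0.290 ± 0.379 was smaller than its spread over clusters, and HoxC had -0.042.

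The 109 methylated Hox cytosines, those with a median of at least 20%, were scattered. Joined at gaps of up to 100 bp, they stood at 13 places in HoxA (20 cytosines), 10 in HoxB (26), 10 in HoxC (24) and 15 in HoxD (39). They had fewer listed neighbours than the low ones, with a median of 3 shared cytosines within 250 bp against 12. On the autosomes these medians were 2 and 15. Such counts depend on what the libraries listed as well as on CpG density. Of the methylated Hox cytosines 35.8% were in a CCGG, against 21.5% of the low ones. On the autosomes these shares were 49.6% and 20.4%. The mean level in control was 52.01% in HoxA, 60% in HoxB, 54.0% in HoxC and 44.6% in HoxD. Over all 109 it was 51.7% ± 6.4 in control, 56.1% ± 8.4 in the Tet1 and Tet2 library, 9.01% ± 1.52 in the Dnmt1 library, 31.7% ± 5.1 in the Dnmt3a library, 55.1% ± 5.6 in the Dnmt3b library and 33.8% ± 6.7 in the double knockdown. HoxD was the lowest of the 4 in control, in both the Dnmt3a and the Dnmt3b library, in the Tet1 and Tet2 library and in the double knockdown.

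**Figure D2:**
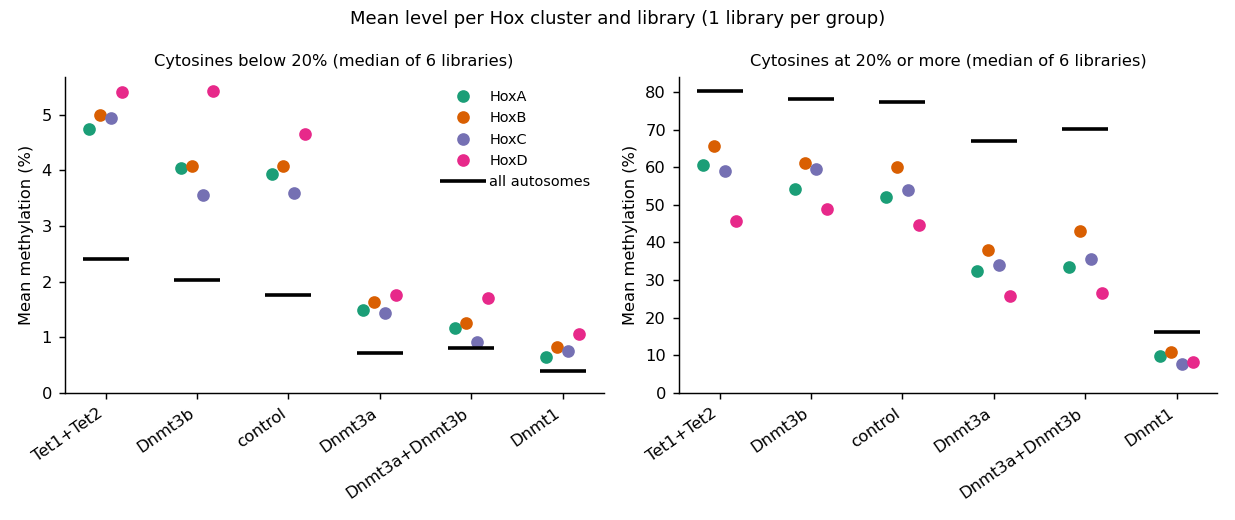
Mean methylation level in percent (vertical axis) of low cytosines (left) and methylated cytosines (right) in each library (horizontal axis, 1 library per group), with 1 point per Hox cluster and a bar for all autosomes. In the left panel the cluster points lie above the autosomal bar in every library, and in the right panel they lie below it, between 44.6% and 60% in control and between 7.60% and 10.9% in the Dnmt1 library.

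In the Dnmt1 library all 109 methylated Hox cytosines were below control. Their mean difference was -42.7 ± 5.6 points, or -82.6% of the control level, with values from -36.4 in HoxD to -49.1 in HoxB. Across all Hox cytosines the difference was -6.94 ± 1.11 points and -81.3%, against -79.0% on the autosomes. At a call size of 20 percentage points, 136 Hox cytosines (11.5%) were called lower, where 31.8% of all autosomal cytosines were, and 0 were called higher, where 0.00813% were. Of the 109 methylated Hox cytosines 104 were called lower. The methylated autosomal cytosines differed by -61.1 ± 0.5 points or -79.1%, and how many of them were called lower was not counted.

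In the Dnmt3a library the Hox clusters were lower by a larger fraction of their level than the autosomes. The mean difference was -4.16 ± 0.44 points over the Hox cytosines and -4.02 ± 0.32 over the autosomes, which was -48.7% of the Hox control level and -15.7% of the autosomal one. At the methylated Hox cytosines it was -20 ± 1.3 points or -38.7%, between -18.9 in HoxD and -22.0 in HoxB, and 105 of 109 were below control. The methylated autosomal cytosines, at 77.3% in control, differed by -10.4 points or -13.5%. Those of them below control were not counted. At the call size of 20 points 64 Hox cytosines (5.42%) were lower, near the 5.87% of all autosomal cytosines, and 0 were higher, where 0.0829% were. Of the 64, 45 were methylated by the median.

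In the double knockdown the Hox values lay close to those of the Dnmt3a library. The mean difference from control was -4.21 ± 0.33 points or -49.3%, against -2.94 ± 0.30 points and -11.5% on the autosomes. The methylated Hox cytosines differed by -17.9 ± 0.6 points or -34.6%, and 102 of 109 were below control. The methylated autosomal cytosines, at 77.3% in control, differed by -7.23 points or -9.36%, and those below control were not counted. At 20 points 67 Hox cytosines (5.67%) were called lower, where 3.45% of all autosomal cytosines were, and 0 higher, where 0.127% were. Set directly against the Dnmt3a library, the double knockdown differed by -0.052 ± 0.216 points over all Hox cytosines, which was within the spread over clusters. At the low ones it was lower by -0.270 ± 0.200 points and in all 4 clusters, and at the methylated ones higher by 2.09 ± 1.86 points and in all 4. On the autosomes the double knockdown was above the Dnmt3a library by 1.08 ± 0.10 points, and on all 19 of them.

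In the Dnmt3b library and in the Tet1 and Tet2 library differences were small and mostly upward. The Dnmt3b mean difference of 0.580 ± 0.447 points had the same sign in all 4 clusters, from 0.121 in HoxB to 1.11 in HoxD, and 74 of the 109 methylated cytosines were above control. At 20 points 2 Hox cytosines were called lower, with 0.464% called on the autosomes, and 3 higher, with 0.838%, which are shares of 0.169% and 0.254%. In the Tet1 and Tet2 library the difference was 1.24 ± 0.40 points, from 0.800 in HoxD to 1.77 in HoxC, and 74 of the 109 were above control. It called 6 Hox cytosines lower (0.508%, with 0.358% on the autosomes) and 14 higher (1.19%, with 1.53%). The methylated cytosines of HoxA differed most in this library, by 8.66 points, and those of HoxD least, by 1.25. Methylated autosomal cytosines were higher by 3.02 points in this library and by 0.828 in the Dnmt3b library. Those of them above control were not counted.

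Because Hox and autosomal cytosines differ in level, Hox cytosines were also set beside autosomal cytosines of like level. Cytosines were binned on the mean of the Tet1 and Tet2 library and the Dnmt3b library, which takes no part in the Dnmt3a and double knockdown comparisons with control. In the bin from 20% to 40% the 88 Hox cytosines had 24.9% in control and 10.4% in the Dnmt3a library, a relative difference of -58.2%, where 13135 autosomal cytosines had 25.4% and 12.8%, or -49.7%. From 40% to 60% the 41 Hox cytosines had 45.0% and 23.2%, or -48.3%, against 46.0% and 28.4%, or -38.3%. From 60% to 80% the 34 Hox cytosines had 63.8% and 43.1%, or -32.5%, against 69.5% and 54.0%, or -22.4%, with Hox control levels here below those of the autosomes. The 6 HoxA cytosines of this bin had 53.98% in control and 36.7% in the Dnmt3a library, or -32.0%. HoxA was thus not of like level there. From 5% to 20%, however, the 255 Hox cytosines had -61.0% and the autosomes -59.6%. By relative difference all 4 clusters lay below the lowest of the 19 autosomes in each bin from 20% to 80%, with only 5 to 49 cytosines per cluster and bin. From 5% to 20% 2 clusters lay below the autosomal range and 2 above it. Means over so few cytosines scatter more than means over whole autosomes, so lying outside the autosomal range is weak ground for a difference. In the Dnmt3b library, which helped set the bins, 2 clusters lay below that range and 2 above it from 20% to 40%. In points the order in the Dnmt3a library was less uniform. From 20% to 40% HoxA differed by -11.8 points, above the autosomal range of -13.6 to -12.1. Its control mean there was 19.7%, below that of the autosomes. From 40% to 60% HoxC, at -19.09 points, lay just inside the autosomal range of -19.12 to -15.9.

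**Figure D3:**
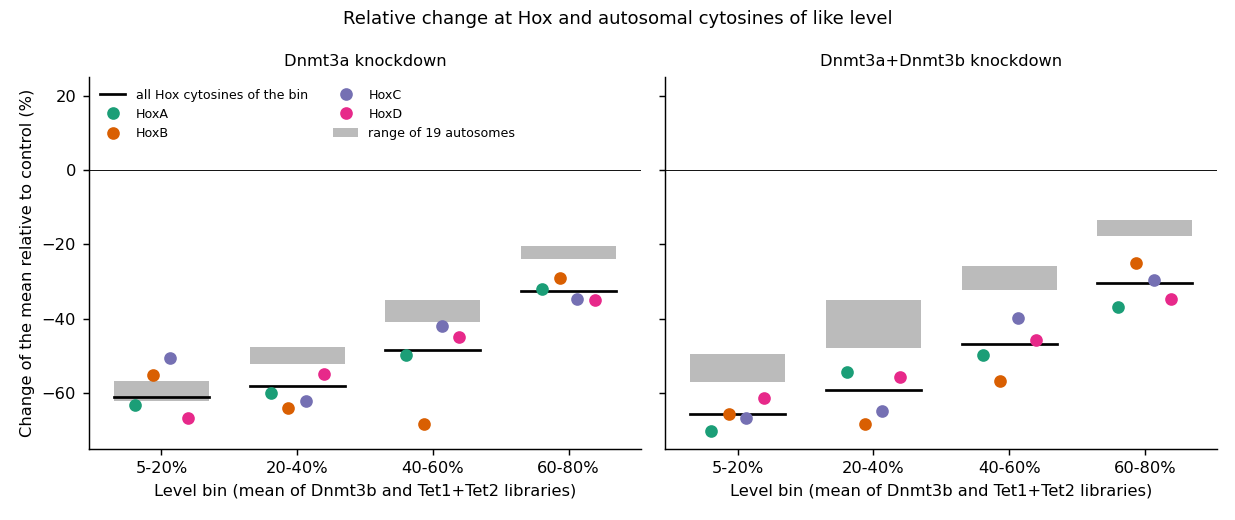
Change of the mean relative to control in percent (vertical axis) in the Dnmt3a (left) and double knockdown (right) libraries, by level bin (horizontal axis, set on the mean of the Tet1 and Tet2 library and the Dnmt3b library), with points for the 4 clusters, black bars for all Hox cytosines of the bin and grey boxes for the range of 19 autosomes. From 20% to 80% every cluster point lies below the grey box, and from 5% to 20% the Dnmt3a points fall on both sides of it.

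From 5% to 80% the gap to the autosomes was wider in the double knockdown than in the Dnmt3a library. The relative difference was -65.6% in Hox against -54.2% on the autosomes from 5% to 20%, -59.2% against -41.4% from 20% to 40%, -46.8% against -29.2% from 40% to 60%, and -30.4% against -15.6% from 60% to 80%. By relative difference all 4 clusters lay below all 19 autosomes in each of these 4 bins. Here too each cluster rested on few cytosines, and HoxA from 60% to 80% had a control level below that of the autosomes. In points HoxA from 20% to 40%, at -10.7, lay inside the autosomal range of -12.3 to -8.83. HoxC from 5% to 20%, at -4.51 points, lay inside the range of -4.99 to -3.92. Above 80%, with only 10 Hox cytosines, the order was the opposite: -7.85% against -5.47% in the double knockdown and -20.6% against -8.41% in the Dnmt3a library. The gap was also present when both sets were kept to cytosines with at least 3 listed neighbours within 250 bp. In the 3 upper bins such Hox cytosines had -58.5%, -47.4% and -36.9% in the Dnmt3a library against -49.7%, -39.2% and -24.4%, over 81, 30 and 19 Hox cytosines. The same Hox cytosines had -58.7%, -47.4% and -33.9% in the double knockdown against -42.0%, -30.0% and -17.0%. No test of these gaps was made.

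For the Tet1 and Tet2 library the bins were set on the Dnmt3b library alone. From 20% to 40% the 94 Hox cytosines were higher than control by 3.53 points, against 5.93 on the autosomes. From 40% to 60% the values were 6.83 over 34 Hox cytosines and 6.93, and from 60% to 80% they were 2.22 over 37 and 4.87. Relative to control these were 14.2%, 16.4% and 3.60% at Hox cytosines and 21.7%, 14.2% and 6.79% on the autosomes, so no steady order was seen. Above 80% the 13 Hox cytosines were higher by 6.54 points, against 1.5 on the autosomes. The Dnmt3b library that set this bin was itself 6.67 points above control there, against 1.54 on the autosomes. Control levels were 76.7% and 88.1%, so the sets were not of like level. From 5% to 20% the differences were 1.68 points over 221 Hox cytosines and 3.05, and below 5% they were at most 1.08 points in either set. In the 3 bins from 20% to 80% the Dnmt3a library had relative differences of -59.0%, -45.6% and -35.2% at Hox cytosines against -48.0%, -36.2% and -20.5% on the autosomes. Control levels in these bins were 24.9%, 41.6% and 61.8% at Hox cytosines and 27.3%, 48.8% and 71.7% on the autosomes. The Hox levels were thus the lower ones, and the autosomal relative difference itself shrank as the level rose.

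The clusters were also read in runs of neighbouring cytosines. Segments of at least 5 shared cytosines with gaps of up to 100 bp numbered 89 in the Hox windows, of 22524 on the autosomes. By the median over libraries 86 were low, 3 intermediate and 0 high, while 76.9% of the autosomal segments were low, 13.1% intermediate and 9.96% high. Hox segments classed low by this median had control means of up to 27.8%. In control 32.6% of the Hox segments had a mean below 1%, against 57.4% on the autosomes, and 30.2% of the low Hox segments had at least 5%, against 10.9%. At 20 points 5 Hox segments were lower in the Dnmt1 library (23% of all segments were), 2 in the Dnmt3a library (3.39%), 1 in the double knockdown (1.31%), and 0 in the Dnmt3b library (0.0311%) and the Tet1 and Tet2 library (0.0178%). No Hox segment was higher by 20 points, where 0.231% of all segments were in the Tet1 and Tet2 library, 0.0799% in the Dnmt3b library and 0.00444% in the double knockdown, and 0 in the others.

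The 3 intermediate segments lay in HoxB and HoxA. The first, chr11:96125567-96125693 with 8 cytosines, had 68.9% in control, 70.6% in the Tet1 and Tet2 library, 11.1% in the Dnmt1 library, 46.0% in the Dnmt3a library, 68.3% in the Dnmt3b library and 48.6% in the double knockdown. It differed by -57.8 points in the Dnmt1 library, -23.0 in the Dnmt3a library and -20.3 in the double knockdown, and its control levels ranged from 58.2% to 75.5%. The second, chr11:96110108-96110144 with 5 cytosines, had 66.2%, 73.3%, 6.76%, 46.0%, 71.9% and 53.4% in the same order. Its Dnmt1 difference of -59.5 points was the largest among the Hox segments, and its Dnmt3a difference was -20.2. The third, chr6:52162035-52162175 with 5 cytosines, had 33.7%, 39.7%, 3.92%, 19.3%, 36.5% and 18.3%, and its single control levels ran from 6.3% to 58.0%. In all 3 the Tet1 and Tet2 library and the Dnmt3b library stayed near control or above it.

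HoxD held the other 2 segments past 20 points in the Dnmt1 library, named here after their values were seen. By the median over libraries both were classed low, at 16.9% and 15.5% in the order below. The segment chr2:74578480-74578710 with 18 cytosines had 27.8% in control, 23.4% in the Tet1 and Tet2 library, 5.22% in the Dnmt1 library, 9.39% in the Dnmt3a library, 30.3% in the Dnmt3b library and 10.4% in the double knockdown. The segment chr2:74570703-74570816 with 8 cytosines had 24.8%, 41.7%, 3.14%, 6.29%, 27.9% and 5.21%. Its Dnmt3a and double knockdown means were near its Dnmt1 mean, and its difference of 16.9 points in the Tet1 and Tet2 library was the largest upward one among the Hox segments.

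Promoter levels could be read for the Hox genes that were placed. The 5 placed start sites of HoxD fell along the chromosome in the known gene order, Hoxd12, Hoxd11, Hoxd10, Hoxd9 and Hoxd1. The support of the 8 placed promoters differed: 26 cytosines matched for Hoxd11, 21 for Hoxd1, 13 for Hoxa5, 9 for Hoxd9, 6 for Hoxa11, 6 for Hoxa13 and 5 each for Hoxd10 and Hoxd12. The next best place matched 5 cytosines for Hoxa13 and 4 for Hoxd10, so these were the most narrowly placed. The unplaced members are Hoxa2, Hoxa3, Hoxa4, Hoxa6, Hoxa7, Hoxa9, Hoxa10, Hoxb1, Hoxb2, Hoxb3, Hoxb4, Hoxb5, Hoxb6, Hoxb7, Hoxb8, Hoxb9, Hoxb13, Hoxc4, Hoxc5, Hoxc6, Hoxc8, Hoxc9, Hoxc10, Hoxc11, Hoxc12, Hoxc13, Hoxd3, Hoxd4, Hoxd8 and Hoxd13.

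Hoxd12 had the highest promoter level. Only 2 of its cytosines were shared by all libraries, both just after the start site, at positions 23 and 46 counted from the start as 0. Their mean was 40.6% in control, 46.9% in the Tet1 and Tet2 library, 9.10% in the Dnmt1 library, 20.2% in the Dnmt3a library, 47.8% in the Dnmt3b library and 22.2% in the double knockdown. The capitals in the Hoxd12 sequence add CpGs that were not listed in the Dnmt1 and double knockdown libraries. The cytosine at -207 had 70.0% in control, 75% in the Tet1 and Tet2 library, 41.4% in the Dnmt3a library and 66.7% in the Dnmt3b library. That at -170 had 100%, 83.3%, 72.4% and 94.4% in the same libraries. At all 4 of these cytosines the Dnmt3a library was below control. Over the 5 cytosines that control listed, the control mean was 60.2%. Over the 23 shared cytosines in the first 1000 bases after the start, 10 of them methylated by the median, the mean was 23.9% in control, 25.96% in the Tet1 and Tet2 library, 4.92% in the Dnmt1 library, 14.2% in the Dnmt3a library, 30.7% in the Dnmt3b library and 13.7% in the double knockdown.

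Hoxa5 came next. Its 7 shared cytosines, at -236 to -128, had 13.2% in control, 13.8% in the Tet1 and Tet2 library, 0% in the Dnmt1 library, 2.46% in the Dnmt3a library, 6.54% in the Dnmt3b library and 3.17% in the double knockdown. Single levels in control ran from 8.5% to 21.7%, and all 7 were listed at 0 in the Dnmt1 library. Here the Dnmt3b library was lower than control, unlike the mean over HoxA. The 11 shared cytosines downstream of its start, at 632 to 740, had 0.936% in control. The capitals in the Hoxa5 sequence add CpGs before the start that only the Tet1 and Tet2 library listed. There the cytosines at -93, -98, -103 and -109 were at 0%, while those at -115 and -129 were above 0. Over the 13 cytosines that this library listed, its mean was 8.84%. Low levels thus also lay upstream in that library, and the change in level could not be placed at the start.

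The other promoters were near 0. Hoxd11 had 0% over 12 shared cytosines in control and in every other library except the Dnmt3a library, with 0.317%, and its 58 shared cytosines within 1000 bases of the start had 0.141% in control. Hoxd1 had 0.727% in control over 11 cytosines, 1.5% in the Tet1 and Tet2 library, 0% in the Dnmt1 library, 0.0727% in the Dnmt3a library, 0.473% in the Dnmt3b library and 0.691% in the double knockdown. Hoxd9, which acts with its paralogs in the hindlimb and lower spine, had 1.96%, 5.83%, 1.29%, 1.89%, 1.67% and 1.20% over 9 cytosines in the same order. Hoxd10, a gene of lumbar motor neurons, had 1.70%, 0%, 0%, 0.680%, 0% and 0.680% over 5. Hoxa11, which patterns the forearm and the reproductive tract, had 2.02%, 3.87%, 0.383%, 0.733%, 3.55% and 0.833% over 6. Hoxa13 had no shared cytosine in its promoter, and the 6 listed in the Tet1 and Tet2 library alone were at 0. Its 36 shared cytosines from 285 to 977 bases after the start had 0.611% in control.

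**Figure D4:**
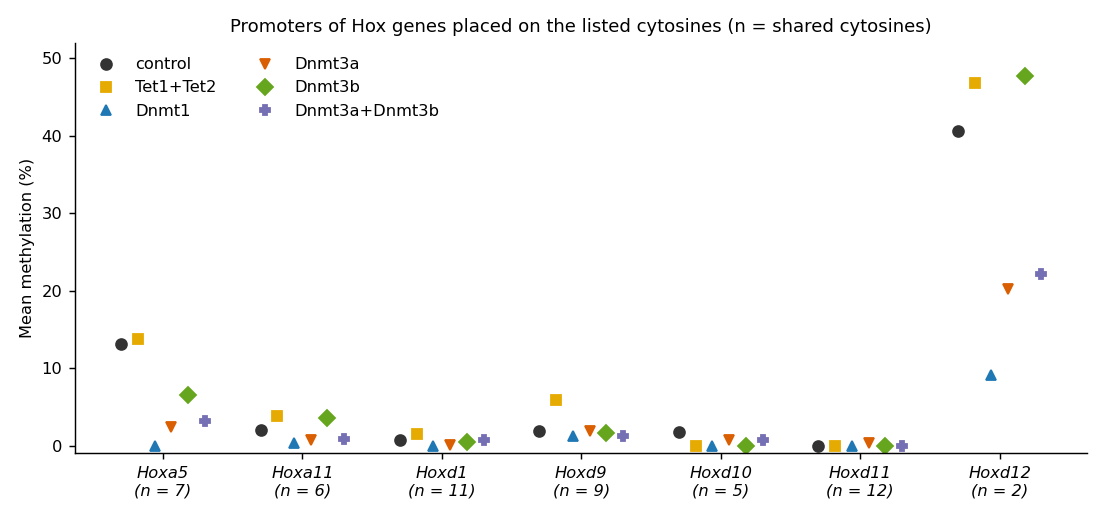
Mean methylation level in percent (vertical axis) of the shared cytosines between 250 bases before and 50 after the start of 7 placed Hox genes (horizontal axis, n is the number of cytosines), 1 point per library. Hoxd12, with 2 cytosines, reaches 40.6% in control, Hoxa5 13.2%, and the other genes stay at or below 5.83% in every library.

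Beside all placed promoters the Hox promoters were not the emptiest. On the autosomes 7434 promoters of 6678 genes were placed, and 5384 of these had at least 3 shared cytosines, with a median of 0.025% in control, 87.9% of them below 1% and 2.08% at 20% or more. The 6 Hox promoters with at least 3 shared cytosines had a median of 1.83%, and 2 of the 6 were below 1%. Promoters of genes that work with or border the Hox genes were at or near 0 where at least 3 shared cytosines were placed. Of 25 genes next to the clusters 7 were placed, and the 3 with enough shared cytosines (Hibadh, Mtx2 and Snx11) were all at 0% in control. Of 9 genes of TALE homeodomain proteins, which bind DNA together with Hox proteins, 2 were placed, and Pbx2 was at 0.0333%. Of 16 genes of the retinoic acid pathway, a signal that switches on Hox genes, 4 were placed, and Rarb, Rxra and Rxrb were at 0% in control, with Rarb at 3.57% in the Tet1 and Tet2 library over 3 cytosines. Of 19 Polycomb genes 12 were placed, and 9 of them, with 12 promoters, ran from 0% to the 0.753% of Phc2. Of 8 Trithorax genes 3 were placed, and Kmt2a and Men1 were at 0%. None of 6 ParaHox genes, the sister family of the Hox genes, was placed with any number of shared cytosines.

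The libraries differed in how much of the clusters they listed, which bears on every level above. The Dnmt1 library listed 1278 Hox cytosines and the others between 1651 and 1768. Read depth per cytosine is unknown. Mitochondrial cytosines, 94 of them, had means between 0% and 0.066% in the 6 libraries, all below the traces at low Hox cytosines. At the 14 Hox CpGs with both strands shared, the difference between the strands had an SD of 7.01 points in control. The 11 low ones among them had 5.15, and the 3 methylated ones had a mean difference of 11.1 points, up to 18.4. Over 1361 methylated autosomal CpGs the SD was 11.03. By strand, the Dnmt3a difference over Hox cytosines was -4.99 points on the plus strand and -3.43 on the minus strand.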

How the data were processed

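DNA methylation of E14 mouse embryonic stem cells was measured by RRBS in 6 libraries, 1 per group. MspI digestion, TruSeq library preparation, bisulfite conversion and sequencing on a HiScanSQ are recorded per the labels' protocols. Per the submitters' processing notes, CASAVA 1.8, Bismark 0.10.1 and the build mm9 were used. The sources used here do not give the coverage minimum or the handling of duplicate reads. The values deposited by the authors are methylation fractions with 3 decimals, 1 per cytosine and strand, with 5 bases of context and without counts or coverage, so depth is unknown and no interval can be given.

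Fractions were multiplied into percent and joined by position, strand and context (Python 3.11.15, pandas 2.3.3, NumPy 2.4.6, matplotlib 3.10.9). A test per cytosine needs counts and was not run. The title of the Dnmt1 sample names the shRNA Dnmt1a, and its treatment label, Dnmt1, was followed. No mm9 annotation was used: promoters were placed where at least 5 listed cytosines on the same chromosome matched the CpG contexts and spacings of the RefSeq sequence (GRCm38.p6), with no listed cytosine unmatched and no second place. The calls, the segments and the promoter placing were tested on simulated data. For the placing these were promoters cut from a random sequence, not whole chromosomes of another build, so that test does not give the error rate here. For Mtx2 another place also matched 5 cytosines and was set aside for unmatched listed cytosines. Named segments were those with a median of at least 20% and, per knockdown, up to 3 with the largest difference past 20 points, and 2 HoxD segments were named outside this rule. The members, lists and rules were chosen with earlier results of these data known.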

Additional observations from a re-analysis of the deposited data

How the results depend on the processing

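Of 167 alternative values of the mean differences 133 moved by less than the SD over clusters, 34 by more, and 0 changed sign. Values below are in the order all, methylated and low cytosines where more than 1 moved. On cytosines listed in control and the knockdown, the Dnmt3a difference was -4.95 over all, and the double knockdown -4.66 over all and -16.7 over methylated ones. In the 5 libraries other than Dnmt1, an alternative added after the data were seen, it was -4.87 for Dnmt3a over all, and -4.68, -17.2 and -2.48 for the double knockdown. On the plus strand the Dnmt3a differences were -4.99, -22.1 and -3.01, the double knockdown -4.91, -19.7 and -3.19, and Dnmt1 -3.74 at low cytosines. On the minus strand they were -3.43, -17.6 and -2.15, then -3.61, -15.9 and -2.50, and -2.94. When the mean of the Tet1 and Tet2 library and the Dnmt3b library defined the classes, methylated and low differences were -33.3 and -2.42 (Dnmt1), -17.5 and -1.86 (Dnmt3a), -16.7 and -2.08 (double knockdown), and 0.604 at low ones for Tet1 and Tet2. With a class limit of 10% they were -31.5 and -2.14, -16.9 and -1.68, and -16.0 and -1.91.

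Of 40 counts 24 moved. Each count is followed by the share of all autosomal cytosines called under the same rule. At a call size of 10 points the Hox cytosines lower were 231 for Dnmt1 (34.8%), 191 for Dnmt3a (17%), 166 for the double knockdown (12.5%), 27 for Dnmt3b (2.8%) and 32 for Tet1 and Tet2 (1.96%). Of 1181 cytosines these are 19.6%, 16.2%, 14.1%, 2.29% and 2.71%. Those higher were 3 for Dnmt1 (0.0479%), 1 for Dnmt3a (0.543%), 59 for Dnmt3b (4.46%) and 79 for Tet1 and Tet2 (7.22%). At 30 points those lower were 89 (29.7%), 23 (1.57%), 21 (0.745%), 0 (0.0894%) and 0 (0.0707%) in the same order, and those higher 0 for Dnmt3b (0.168%) and 3 for Tet1 and Tet2 (0.328%). On cytosines listed in control and the knockdown those lower were 124 for Dnmt3a (7.82% of the Hox set, 7.99% of the autosomal one), 104 for the double knockdown (6.90%, 4.9%), 14 for Dnmt3b (0.873%, 1.22%) and 13 for Tet1 and Tet2 (0.843%, 0.889%). Those higher were 2 (0.293% of the autosomal set), 1 (0.421%), 29 (1.74%) and 35 (2.58%). The Dnmt3a share stayed near the autosomal one at 10 points and on this larger set, as in the main comparison. The cause of these moves was not tested beyond the larger or smaller sets that each alternative makes.

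No paired analysis was possible because each group had 1 library. Leaving out a replicate and a coverage minimum were not run, for want of replicates and of coverage. With depth unknown, a level from few reads weighs as much as one from many.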
